A study of Homo sapiens with 2 samples.

Results

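The 10 genes described here, SLC2A1, HK2, GPI, PFKL, ALDOA, TPI1, GAPDH, ENO1, PKM and LDHA, encode proteins that carry glucose into the cell and break it down to lactate. They were chosen by name, and every peak in the deposited list whose gene name was one of them was taken, which gave 26 of the 44771 peaks. The peaks are regions of chromatin recovered with an antibody against APC from HCT-116, an established human colon carcinoma line. The series holds 1 anti-APC chromatin immunoprecipitation (ChIP) library and 1 library of pre-cleared input without an APC antibody. Both came from cells with wild-type APC and the CTNNB1{delta}Ser45 allele, whose β-catenin product resists degradation, crosslinked with 1% formaldehyde for 10 min at 24 h after seeding. The antibody recognises the last 50 amino acids of APC. The list holds peaks of the ChIP library only and gives no counts of reads, and the depth of sequencing is unknown. The identity of the line was not checked against markers, since a peak list holds no expression. With no replicate and no ChIP with a control antibody, no difference between samples could be tested, and all values below describe 1 list.

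Glycolysis turns glucose into pyruvate in a chain of cytosolic reactions, and lactate dehydrogenase then reduces pyruvate to lactate. Many tumours, colon carcinomas among them, take up much glucose and release lactate even when oxygen is present. The transcription factors MYC, which binds the E-box sequence CACGTG, and HIF1, which binds sites with the core ACGTG, are known to activate many of these genes. APC is a large tumour suppressor protein that acts mostly in the cytoplasm, as a scaffold of the complex that marks β-catenin for destruction, and that has also been found in the nucleus.

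Each of the 10 genes was named for at least 1 peak, where 67.5% of 20039 protein-coding genes were. In every case a peak was centred at most 10 kb from a transcription start site (TSS) of the gene, against 50.9% of protein-coding genes. A peak covered the TSS of 8 of the 10 genes, where 36.5% of protein-coding genes had one. By the hg19 starts behind the peak distances, the 2 genes without one were HK2, where a peak began 281 bp past the start, and GPI. Starts listed by RefSeq on GRCh38.p14 were not matched to these, so whether other starts of HK2 or GPI were covered was not tested. Peaks labelled promoter in this list had centres between -999 and 983 bp from the TSS, though other labels also occur in that range, and 4 genes (SLC2A1, ALDOA, ENO1 and PKM) had a peak labelled promoter, against 22.0% of protein-coding genes. The peaks over the starts of PFKL, TPI1, GAPDH and LDHA carried other labels. As the genes were chosen with earlier results of these data known, these shares are given without a test.

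Sequences in front of a start are given for 5 genes. At GAPDH, TPI1 and LDHA the hg19 starts behind the peak distances lay under a peak. At GAPDH and TPI1 it was the longest of the group. At HK2 and GPI the hg19 start did not lie under a peak. Each sequence is the 250 bases before a start listed by RefSeq on GRCh38.p14, written 5′ to 3′ along the gene. Capitals mark matches to the E-box, the hypoxia response core ACGTG or the GC box GGGCGG on either strand. The RefSeq starts were not matched to the hg19 starts, so whether each start shown lies under a peak was not tested. RefSeq lists 15 starts for the 10 genes, and where a gene has more than 1, the promoter shown is the first for TPI1 and LDHA and the second for HK2.
GAPDH, chr12:6535014-6535263, plus strand: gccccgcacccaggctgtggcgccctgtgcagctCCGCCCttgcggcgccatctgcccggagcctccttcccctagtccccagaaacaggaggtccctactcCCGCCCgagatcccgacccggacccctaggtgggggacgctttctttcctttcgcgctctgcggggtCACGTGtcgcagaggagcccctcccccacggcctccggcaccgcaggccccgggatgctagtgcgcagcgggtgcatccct
TPI1, chr12:6867281-6867530, plus strand: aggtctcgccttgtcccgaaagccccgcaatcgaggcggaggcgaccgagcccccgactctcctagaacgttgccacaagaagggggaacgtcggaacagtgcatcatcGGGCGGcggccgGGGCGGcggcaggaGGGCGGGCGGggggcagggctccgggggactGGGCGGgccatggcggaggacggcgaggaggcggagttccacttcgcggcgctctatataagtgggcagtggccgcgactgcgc
LDHA, chr11:18394313-18394562, plus strand: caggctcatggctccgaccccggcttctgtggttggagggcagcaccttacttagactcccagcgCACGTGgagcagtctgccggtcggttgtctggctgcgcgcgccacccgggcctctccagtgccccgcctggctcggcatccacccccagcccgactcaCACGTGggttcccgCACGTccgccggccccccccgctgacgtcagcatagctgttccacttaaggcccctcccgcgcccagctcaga
HK2, chr2:74834920-74835169, plus strand: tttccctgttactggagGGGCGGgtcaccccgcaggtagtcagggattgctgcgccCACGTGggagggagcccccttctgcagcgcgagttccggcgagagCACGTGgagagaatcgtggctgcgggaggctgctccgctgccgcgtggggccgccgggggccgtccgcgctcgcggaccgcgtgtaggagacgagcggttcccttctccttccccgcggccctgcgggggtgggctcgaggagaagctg
GPI, chr19:34364742-34364991, plus strand: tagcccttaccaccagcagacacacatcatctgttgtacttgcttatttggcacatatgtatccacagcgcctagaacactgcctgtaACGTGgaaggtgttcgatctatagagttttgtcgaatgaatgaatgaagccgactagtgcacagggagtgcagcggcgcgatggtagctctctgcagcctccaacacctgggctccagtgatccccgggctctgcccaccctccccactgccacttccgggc

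An E-box was present in the GAPDH promoter, at -81 relative to the start. The LDHA promoter shown held 2, at -185 and -87, and so did the HK2 promoter shown, at -194 and -149. The other RefSeq promoter of LDHA and that of HK2, which are not shown, held no E-box. Among the 15 promoters of the 10 genes, 4 held an E-box (at HK2, ALDOA, GAPDH and LDHA), against 7.37% of 22198 promoters of protein-coding genes of the same length. The core ACGTG, which lies inside every E-box, was in 9 of the 15 promoters, from 6 of the 10 genes, against 20.2% of all. The GC box, the site of SP-family factors, was in 11 of 15 promoters, from 9 of the 10 genes, against 53.7% of all. GPI was the gene without one in its promoter, whose G and C content was 54.8%, against 71.2% at GAPDH and a median of 62.0% over all promoters. The median of the 15 promoters was also 71.2%, so the motif shares compare promoters of unlike base content. Whether the shares follow base content was not tested. The first and second ALDOA promoters (57.6% and 53.2%) and the LDHA promoter shown (69.6%) also lacked a GC box. The core CTTTGA of TCF and LEF, the DNA-binding partners of β-catenin, and the AP-1 site TGANTCA were in none of the 15 windows, against 9.62% and 5.36% of all promoters. The sequence TATAAA, the core of the TATA box, was found at SLC2A1 only, against 9.01% of all promoters. Each motif was searched on both strands, and a match or its absence describes these letters in this window only.

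SLC2A1 encodes GLUT1, the transporter that brings glucose into most cells. It was named for 3 peaks on chromosome 1 (hg19). A promoter peak of 4427 bp (43422776 to 43427201) was centred 141 bp upstream of the TSS, at a listed distance of -141 bp. The others, of 821 and 4198 bp, lay in intergenic sequence at -29384 and -47912 bp and were centred in the Alu elements AluSp and AluY. A further 4 peaks inside the SLC2A1 transcript carried another name, SLC2A1-AS1, an antisense RNA gene. Its listed TSS was nearer only by a small margin, as the distances put it close to the SLC2A1 start. The 4 peaks were 2271, 4694 and 5484 bp long in intron 2 and 4965 bp long in intron 1. Together they filled most of a stretch from 8039 to 28263 bp downstream of the SLC2A1 start.

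**Figure D1:**
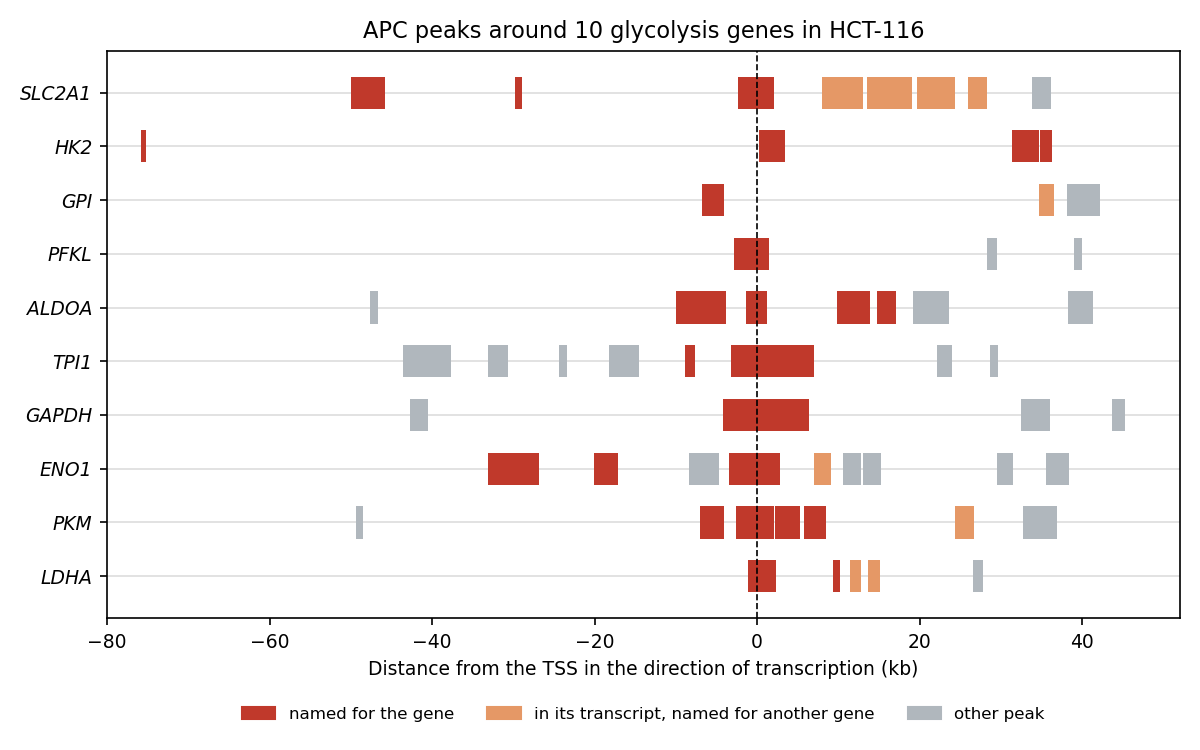
Peaks around the 10 genes, one row per gene in pathway order. The horizontal axis is the distance in kb from the TSS nearest to a peak centre, in the direction of transcription, with every peak centred within 50 kb and the farther peaks named for the gene or lying in its transcript. Red bars are peaks named for the gene, orange bars peaks annotated to its transcript under another gene's name, and grey bars other peaks. Red bars cross the TSS in 8 rows, while the HK2 bar begins 281 bp after it and the GPI bar ends 4098 bp before it.

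HK2 encodes the hexokinase that traps glucose in the cell by phosphorylating it and that many tumours express. None of its 4 peaks on chromosome 2 covered the hg19 TSS behind the listed distances. The closest, 3093 bp long (75060063 to 75063154), began 281 bp downstream of the TSS, and its centre was annotated to the 5′ UTR in exon 1. A pair of peaks of 3305 and 1462 bp lay in introns 2 and 3, more than 30 kb into the gene at 32982 and 35503 bp, with a gap of 138 bp between them. The last was 598 bp long, the shortest of the 26, and lay 75534 bp upstream (listed as -75534 bp) in an AluSg element.

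GPI, the isomerase that converts glucose phosphate to fructose phosphate, was named for a single peak on chromosome 19. It was 2662 bp long (34848887 to 34851547) and lay upstream of the gene, with its centre in a CpG island at -5428 bp. Its near edge was 4098 bp from the TSS, the largest such gap for the closest peak of any of the 10 genes. At the other end of GPI, a 1915-bp peak in the 3′ UTR of exon 17 was named for the neighbour PDCD2L. No other peak centre lay within the GPI transcripts.

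PFKL, the liver-type subunit of phosphofructokinase, the main control point of the pathway, had 2 peaks on chromosome 21 that nearly touched. The first, 3136 bp long (45717024 to 45720158), covered the TSS by reaching 241 bp past it, while its centre was annotated to the termination site of AIRE, the upstream neighbour. The second, 1160 bp long, began 15 bp farther on and lay in intron 1. Merged, they formed a single region over the PFKL start.

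ALDOA encodes the aldolase that splits fructose bisphosphate into triose phosphates. It was named for 4 peaks on chromosome 16 spread over 27.1 kb, and the listed distances placed 3 start sites in the gene. A promoter peak of 2595 bp (30063034 to 30065627) covered the most upstream of these, and a promoter peak of 4124 bp (30074185 to 30078307) covered the other two. The longest of the 4, at 6128 bp, was intergenic at -6890 bp, and the remaining 2336-bp peak was centred in intron 6. ALDOA was the only one of the 10 genes with 2 peaks labelled promoter.

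TPI1, which interconverts the triose phosphates, and GAPDH, which oxidises glyceraldehyde phosphate, lie on the same arm of chromosome 12 and had the longest peaks of the group. The TPI1 peak was 10143 bp long (6974102 to 6984243), from 3176 bp upstream to 6965 bp downstream of the TSS. Its centre was annotated to the termination site of the neighbour SPSB2, so its label does not show that it took in the TPI1 start. A second TPI1 peak, of 1264 bp, was centred in an AluSc element in intron 9 of USP5. GAPDH had 1 peak of 10547 bp (6640171 to 6650716), from 4214 bp upstream to 6331 bp downstream of the TSS, with its centre in intron 1. No other peak was called between MRPL51, 36263 bp to the left, and NOP2, 26091 bp to the right.

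ENO1, the enolase of late glycolysis, was named for 3 peaks on chromosome 1, and the listed distances gave it 2 start sites. The promoter peak of 6336 bp (8928794 to 8935128) covered the downstream start. The length rank and window cover given below for ENO1 rest on this peak and this start. RefSeq lists a single ENO1 start on GRCh38.p14, and which of the 2 it corresponds to was not tested. The upstream start lay under a 3715-bp peak (8936295 to 8940008) that was named for the antisense RNA gene ENO1-AS1. Intergenic peaks of 2902 and 6285 bp followed at -11103 and -22509 bp, the longer centred in an AluSx element. A 2114-bp peak in ENO1 intron 9 was named for MIR6728, a microRNA gene.

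PKM encodes the muscle-type pyruvate kinase, which makes pyruvate and whose M2 splice form is common in tumours. Its 4 named peaks on chromosome 15 stood close together, all within 10 kb of a start. The promoter peak of 4732 bp (72521643 to 72526373) covered both start sites that the distances gave. Downstream of it, peaks of 3125 and 2705 bp lay in intron 1, separated from each other by 411 bp and from the promoter peak by 111 bp. Upstream, a 2936-bp intergenic peak lay at -5511 bp. One more peak within the PKM transcripts, 2284 bp long in intron 8, was named for GRAMD2.

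LDHA encodes the dehydrogenase subunit that favours the reduction of pyruvate to lactate. A peak of 3496 bp on chromosome 11 (18414795 to 18418289) covered both LDHA starts, with its centre in a CpG island of intron 1, 606 bp downstream of a TSS. A second peak of 861 bp lay in an AluJb element in intron 6. Toward the 3′ end of LDHA, peaks of 1327 and 1410 bp were named for LDHC, the testis isoform gene next to it, the first of them in intron 6 of LDHA and the second at its termination site.

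Across the 10 genes, 9 peaks were annotated to one of their transcripts but named for another gene, and counting these brought the total to 35. They were 4 at SLC2A1, 2 at LDHA and 1 each at GPI, ENO1 and PKM. The HK2, PFKL, ALDOA, TPI1 and GAPDH transcripts held no such peak. The list names 1 gene per peak, and whether these peaks belong to the host gene or to the named one was not tested.

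The 26 peaks were long for this list. Their median length was 3109 bp (range 598 to 10547), against 1350 bp for all peaks, and 20 of them (76.9%) had at least the third-quartile length of 2135 bp, against 25.0% of all peaks. The 9 peaks that covered a TSS had a median of 4427 bp, against 2249 bp for all TSS-covering peaks. The 17 that did not had a median of 2705 bp, against 1184 bp for all such peaks. The greater length was therefore also seen in peaks that did not cover the listed TSS. Some of these still lay close to it, such as the 3093-bp HK2 peak that began 281 bp past the TSS. Peaks at matched distances from a TSS were not compared. Length is the only value the list gives for a peak, and a longer peak is not shown to be a stronger one.

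**Figure D2:**
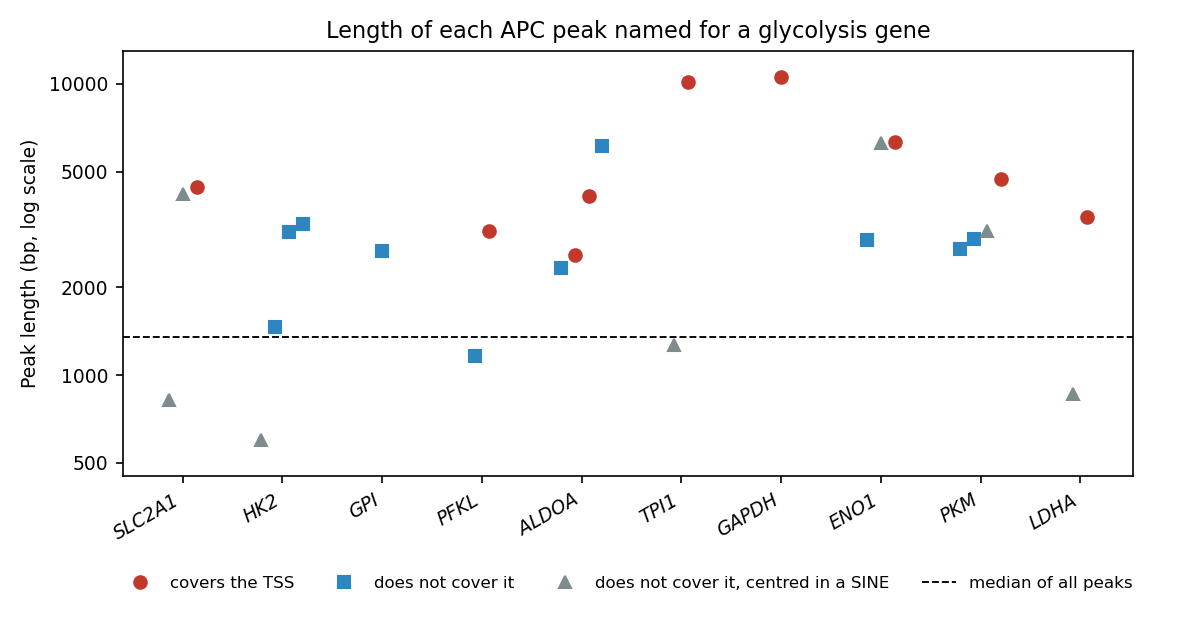
Length of each of the 26 peaks in bp, on a log axis, by gene in pathway order. Red circles cover the TSS, blue squares do not, and grey triangles do not and are centred in a SINE, and the dashed line is the median of all 44771 peaks, 1350 bp. TPI1 and GAPDH have the longest peaks, at 10143 and 10547 bp, and 4 of the 5 peaks below the line are centred in a SINE.

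Among protein-coding genes with a peak over the TSS, 7322 in all, the longest such peak ranked 58th from the top for GAPDH and 66th for TPI1, so 99.2% and 99.1% of these genes had a shorter one. ENO1 (96.4% shorter), PKM (92.1%) and SLC2A1 (90.1%) followed. ALDOA (88.0%), LDHA (81.7%) and PFKL (75.7%) stood lower, and all 8 were above the median of 2232 bp. The median of the 8 genes was 4579.5 bp.

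By their centres, 5 peaks (19.2%) were promoter peaks, against 11.2% of all peaks, and 8 (30.8%) were intergenic, against 36.1%. A further 10 were intronic, 2 lay at termination sites and 1 in a 5′ UTR. The share of peaks that covered the listed TSS was 34.6% (9 of 26), against 18.8% of all peaks. SINEs, the class of short repeats to which Alu elements belong, held the centres of 7 peaks (26.9%), against 38.7% of all peaks. All 7 were Alu elements, and none of these peaks covered a TSS. In the whole list 3.11% of TSS-covering peaks and 47.0% of the others were centred in a SINE. The 7 peaks had a median of 1264 bp, against 889 bp for all SINE-centred peaks, and ranged from 598 bp at HK2 to 6285 bp at ENO1. How reads that fit several Alu copies were placed is not given in the sources used here.

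Peak cover of the 5 kb on each side of the TSS, counting every peak whatever its name, showed how far the starts differed. For genes with several starts, the one nearest to a peak centre was used. At GAPDH 84.3% of the upstream and 100% of the downstream bases lay under a peak, at TPI1 63.5% and 100%, and at PKM 72.1% and 97.8%. ENO1 had 76.7% upstream and 56.8% downstream. At the starts used, these 4 genes of the lower pathway and the triose step were covered over 66.8 to 92.1% of the whole window. ALDOA, TPI1, ENO1, PKM and LDHA had other starts, where cover was not computed, so the order given holds only for the starts used. SLC2A1 (44.2% of the window), PFKL (42.9%), ALDOA (37.7%), LDHA (34.9%) and HK2 (30.9%) formed a middle range. GPI, at 9.03%, was the only one of the 10 below the median of 17.7% over 10869 named protein-coding genes. These are the named genes whose strand could be set, out of 13521. Of them, 6064 had a peak over the TSS, with a median of 24.2%. HK2 had no cover upstream and 61.8% downstream, and GPI had 18.1% upstream and none downstream. PFKL was covered more upstream (57.9%) than downstream (28.0%), and LDHA more downstream (47.1%) than upstream (22.8%). ALDOA had 51.0% upstream and 24.3% downstream at the most upstream of its 3 starts. Its other starts, under the 4124-bp peak, were not used here, so this direction holds for the start used only.

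**Figure D3:**
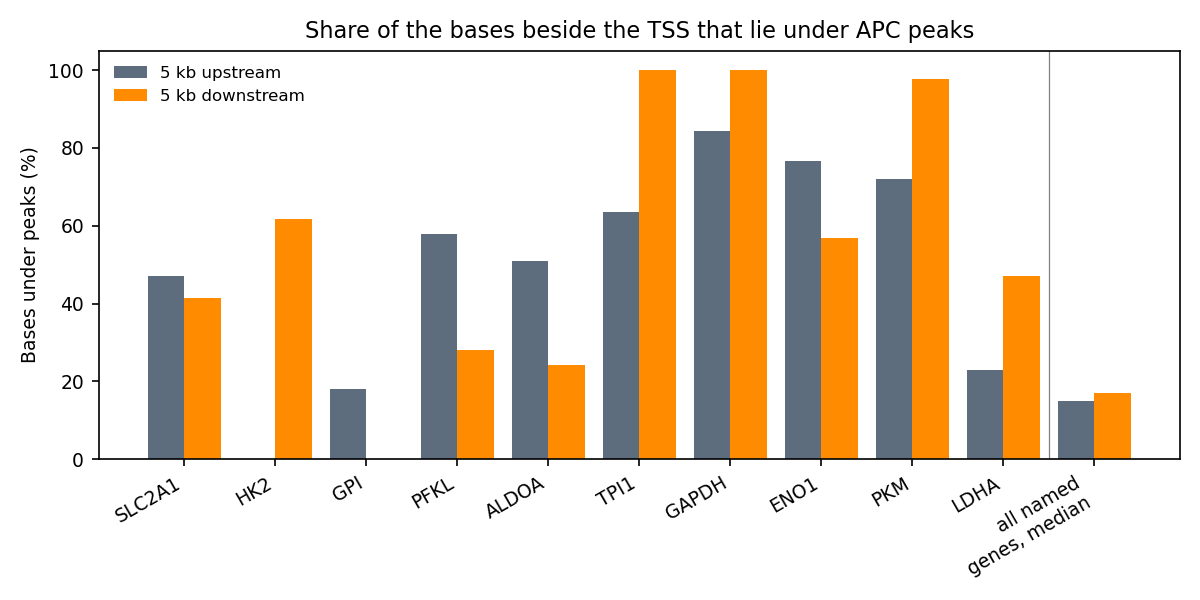
Percentage of the 5 kb upstream (dark bars) and 5 kb downstream (orange bars) of the TSS that lies under a peak of any name, for the 10 genes in pathway order. At the right are medians over 10869 protein-coding genes named for a peak and with a strand that could be set (15.0% and 17.0%). GAPDH and TPI1 are fully covered downstream, HK2 has no upstream bar and GPI no downstream bar.

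The peaks next to these loci belonged to varied genes. Outward from the outermost peaks named for each gene, the next peak under another name lay 1241 bp from the last LDHA peak (LDHC), 2036 bp from the last ALDOA peak (PPP4C), 4185 bp from the ENO1 peaks (MIR6728), 5669 bp from the TPI1 peaks (CDCA3) and 5967 bp from the SLC2A1 peaks (SLC2A1-AS1). On the other side of SLC2A1, the next peak, named for FAM183A, was 57763 bp away. HK2 (SEMA4F at 15149 bp, POLE4 at 78579 bp), PKM (GRAMD2 at 15943 bp, PARP6 at 41536 bp), PFKL (C21orf2 at 26834 bp, ICOSLG at 52273 bp) and GPI (PDCD2L at 38747 bp, KIAA0355 at 81458 bp) stood farther apart from peaks of other names. The ENO1-AS1 peak lay between ENO1 peaks and does not enter these distances.

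The 2 steps of glycolysis between GAPDH and ENO1, which the 10 genes leave out, also had a peak over the start. PGK1, the phosphoglycerate kinase on chromosome X, had a promoter peak of 1129 bp (77359148 to 77360275), shorter than every TSS-covering peak of the 10 genes. PGAM1, a phosphoglycerate mutase, had a TSS-covering peak of 3357 bp on chromosome 10 (99185346 to 99188701), with its centre in an intron.

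Other isoforms and steps of the pathway varied. Of 21 further glycolytic enzyme genes, PGK1 and PGAM1 among them, 9 had a peak over the TSS (42.9%, against 36.5% of protein-coding genes), with a median length of 2153 bp. The longest were at HK1, the widely expressed hexokinase (3556 bp), PGAM1, PFKP, the platelet-type phosphofructokinase (2843 bp), and PGAM2, the muscle mutase (2638 bp). LDHB, the heart-type lactate dehydrogenase subunit, had a 2153-bp promoter peak. Among 11 other sugar transporter genes, 3 starts were covered: SLC2A4 (3152 bp), SLC2A8 (2823 bp) and SLC2A13 (1622 bp).

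Among the related lists, lactate transport had the highest share of covered starts. Of its 6 genes, 4 had a peak over the TSS (66.7%). SLC16A3, which encodes the lactate exporter MCT4, had one of 11562 bp on chromosome 17 (80184844 to 80196404), longer than any peak of the 10 genes. BSG, the chaperone of these transporters, had one of 4746 bp, SLC16A7 one of 2056 bp and EMB one of 1023 bp. For SLC16A1, which encodes MCT1, the nearest peak was 1351 bp long and lay 7632 bp downstream.

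Of 14 genes of pyruvate entry into mitochondria, 8 were covered (57.1%), with the longest peaks at PDP2, a pyruvate dehydrogenase phosphatase (3316 bp), MPC1, a subunit of the mitochondrial pyruvate carrier (3015 bp), PDHB (2551 bp) and PDK2 (2415 bp). PDK1, a kinase that turns pyruvate dehydrogenase off, had one of 1692 bp. The pentose phosphate pathway, which branches off after hexokinase, had 4 of 7 genes covered (57.1%): TKT (4943 bp), TALDO1 (3901 bp), RPIA (2156 bp) and RPE (1608 bp). Gluconeogenesis, the reverse route of liver and kidney, had 2 of 7 covered (28.6%): PCK2 (4351 bp) and G6PC3 (3794 bp). Of the 5 genes for fructose-2,6-bisphosphate enzymes, PFKFB3 (2628 bp) and PFKFB2 (2496 bp) were covered. Regulators of glycolytic genes had 5 of 10 covered (50.0%), led by MLX (4667 bp), EPAS1 (4367 bp), VHL (2626 bp) and MLXIPL (2565 bp), while the one HIF1A peak lay 23431 bp into the gene. Over the 10 genes, 80.0% of starts were covered and the median longest covering peak was 4579.5 bp, against 45.7% (37 starts) and 2565 bp over these 81 further genes.

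**Figure D4:**
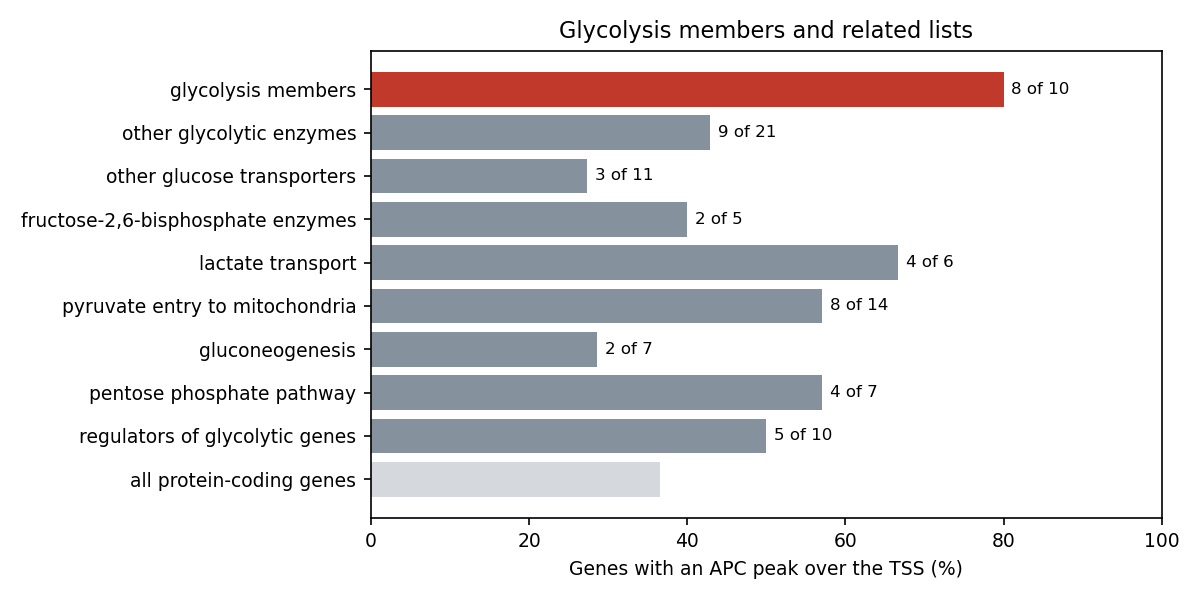
Percentage of genes with a peak over the TSS, for the 10 glycolysis genes (top, 8 of 10), 8 lists of related genes with their counts, and all protein-coding genes (bottom, 36.5%). The 10 genes and the lactate transport list (4 of 6) have the longest bars, from few genes.

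Most of the 10 genes are transcribed in many tissues, and the series holds no RNA measurement. Whether length or cover follows transcription was not tested, and recovery of open chromatin cannot be told apart from APC binding without a control antibody.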

How the data were processed

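The series holds 1 anti-APC ChIP library and 1 pre-cleared input library of HCT-116, grouped by their titles. Per the submitters' processing notes, peaks come from MACS2 and the build is hg19. The sources used here do not give the caller's version, threshold and control, the aligner or the annotation tool. In the deposited table the score of each peak equals its end minus its start plus 2 bp in all 44771 rows, so this score was used as a length only. The distance to a TSS that the authors list, in bp, runs from the peak centre. A peak covered the TSS when that distance was no more than the distance from its centre to its edge. The TSS position was computed from centre, distance and the RefSeq strand. Of 7065 genes with several peaks, 5733 gave a single TSS within 2 bp this way and 29 with the opposite strand. No peaks overlapped.

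Backgrounds were 20039 nuclear protein-coding genes of RefSeq GRCh38.p14, used for names, strand and transcripts. Of 13691 protein-coding names in the list, 13482 matched, and 98.2% of transcript accessions did. Python 3.11.15, numpy 2.4.6, pandas 2.3.3 and matplotlib 3.10.9 were used, and the TSS and cover steps were checked on simulated peaks. All 10 genes are named, with PGK1 and PGAM1, the genes of the next peaks, and up to 4 genes with the longest TSS-covering peaks per related list. LDHB, PDK1, SLC16A1 and HIF1A were named after their values were seen. A few genes of these pathways are not reported here. The genes and lists were chosen with earlier results of these data known. No test was run, as 1 library allows none.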

Additional observations from a re-analysis of the deposited data

How the results depend on the processing

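Values were recomputed with peaks of at least 1350 or 2135 bp, peaks of a gene joined across gaps of up to 500 bp, no repeat-centred peaks, other distances to the TSS, and counting peaks in a transcript of the genes under another name, which was added after the data were seen. Many of these settings could not change a given value by their construction, such as merging for the number of genes named, or could move it 1 way only, such as a minimum length for the median length, so their agreement is no sign of stability. A centre within 1 kb of the TSS, which can only lower the count, was met by 6 genes instead of 10. It drops GAPDH and TPI1, whose peaks cover the TSS from centres farther away, and HK2 and GPI. A peak over the TSS was found for 9 genes when 500 bp of slack was allowed, which adds HK2, and for 7 when the peak had to reach 500 bp past the TSS on both sides, which drops PFKL. The median length ranged from 2936 to 3810 bp. No paired analysis was possible because there is 1 library per group. The list gives no reads per peak, so whether a gap such as those at HK2 and GPI reflects depth was not tested.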
